A study of Mus musculus with 8 samples.

Results

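The BCL2 family genes decide, at the mitochondrion, whether a cell survives or dies by apoptosis. The 10 genes described here are Bcl2, Bcl2l1, Mcl1, Bcl2a1b, Bcl2a1d, Bax, Bak1, Bcl2l11, Bbc3 and Pmaip1. They were chosen by symbol from the 55011 gene symbols of the count table, and all 10 were among the 12414 genes that passed the filter on low counts. They were read in mouse regulatory T cells (Tregs, Foxp3-expressing CD4 T cells that keep immune responses in check) from skin and spleen, with or without Pparg, the gene of a nuclear receptor for fatty acids.

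The mice were 2 weeks old (day 13 in the sample titles) and untreated. WT mice were Pparg+/+ Foxp3-Cre and KO mice were Ppargf/f Foxp3-Cre, so that both genotypes carried Foxp3-Cre, a recombinase driven in Foxp3-expressing cells. Skin and spleen of each genotype gave 4 groups of 2 libraries, and each library was made from 1000 double-sorted cells. The number of animals behind each library is not in the labels. Replicate 1 of every group carried Xist and replicate 2 carried Y-linked genes, so the libraries of a group came from different animals and their spread includes sex. No label names the strain or the litters.

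The guardians BCL2, BCL-XL (from Bcl2l1), MCL1 and A1 (from the Bcl2a1 genes) restrain the effectors BAX and BAK. When the effectors are released they permeabilise the outer mitochondrial membrane, cytochrome c escapes and caspases are activated. The BH3-only proteins BIM (from Bcl2l11), PUMA (from Bbc3) and NOXA (from Pmaip1) start the process by binding the guardians. NOXA binds mainly MCL1 and A1, whereas BIM binds all guardians. In Tregs, survival through MCL1 and death through BIM are known to set the size of the population, and IL-2 signalling through STAT5 supports it.

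The upstream sequences of 4 guardian genes are shown because these genes moved in opposite directions between the tissues. They are RefSeq promoter sequences on GRCm38.p6, read 5′ to 3′ on the gene's strand and ending just before the annotated start of the gene. Capitals mark matches to 3 motifs searched on both strands, TTCNNNGAA (STAT), GGG and CC with 5 bases between them (NF-kB) and TGANTCA (AP-1), in which N is any base. The Bcl2 window is at chr1:106714291-106714540 (minus strand), the Bcl2l1 window at chr2:152831729-152831978 (minus strand), the Bcl2a1b window at chr9:89199023-89199208 (plus strand) and the Bcl2a1d window at chr9:88731915-88732100 (minus strand).
Bcl2: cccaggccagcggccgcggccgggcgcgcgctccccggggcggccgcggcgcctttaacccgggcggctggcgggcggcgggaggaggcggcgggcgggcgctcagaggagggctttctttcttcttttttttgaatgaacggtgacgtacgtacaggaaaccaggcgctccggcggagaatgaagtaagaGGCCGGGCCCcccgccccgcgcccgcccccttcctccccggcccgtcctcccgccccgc
Bcl2l1: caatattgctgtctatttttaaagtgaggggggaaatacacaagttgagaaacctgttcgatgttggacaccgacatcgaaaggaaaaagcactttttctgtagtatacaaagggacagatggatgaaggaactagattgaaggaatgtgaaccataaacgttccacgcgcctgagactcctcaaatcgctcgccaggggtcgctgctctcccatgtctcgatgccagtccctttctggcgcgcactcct
Bcl2a1b: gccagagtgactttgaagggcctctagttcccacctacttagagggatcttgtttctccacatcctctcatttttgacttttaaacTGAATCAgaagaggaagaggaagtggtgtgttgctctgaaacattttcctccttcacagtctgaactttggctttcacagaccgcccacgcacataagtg
Bcl2a1d: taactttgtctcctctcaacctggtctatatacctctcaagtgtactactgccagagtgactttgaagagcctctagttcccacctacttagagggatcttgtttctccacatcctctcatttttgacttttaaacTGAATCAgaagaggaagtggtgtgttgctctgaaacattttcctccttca

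The Bcl2 window was rich in G and C (74.8%) and held 36 CpG dinucleotides and 1 match to the NF-kB letters. The Bcl2l1 window had a GC content of 47.6%, 12 CpG dinucleotides and no match to any of the 3 motifs. RefSeq lists other Bcl2l1 starts within the gene, and the window before one of them, at chr2:152830718-152830967, held 2 matches to the NF-kB letters. The Bcl2a1b and Bcl2a1d windows, of 186 bases each, had GC contents of 45.7% and 41.9%, and each held the AP-1 letters once. Over 136 aligned bases these last windows were 99.3% identical. Of 32851 mouse promoters, 45.8% held the NF-kB letters, 6.75% the AP-1 letters and 7.02% the STAT letters in 250 bases. In 186 bases the shares were 34.5%, 5.09% and 5.42%. A match of letters is a description and not a binding site.

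The A1 copies are shown because their counts cannot be fully separated. The first 60 coding bases of 3 copies follow, from the GENCODE M21 annotation of the same build, with capitals at the 6 positions at which they differ.
Bcl2a1a: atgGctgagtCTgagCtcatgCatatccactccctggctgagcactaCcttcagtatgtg
Bcl2a1b: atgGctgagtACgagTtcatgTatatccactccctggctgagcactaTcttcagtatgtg
Bcl2a1d: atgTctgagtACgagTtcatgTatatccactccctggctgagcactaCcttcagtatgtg

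Bcl2a1b and Bcl2a1d differed at 6 of 516 coding bases (98.8% identity). Only 7.94% of the 25-base windows of the Bcl2a1b transcript and 8.22% of those of Bcl2a1d occurred in the transcripts of no other gene. The reads were 25 bases long, with 2 reads to a fragment, and windows of a single read leave this pairing out. Bcl2a1a had 0 counts in all 8 libraries. No source used here gives the counting rule for multiply matching reads, so the split between the copies is uncertain and their sum is given beside them. If such reads were left out of the counts, the levels of the A1 genes and of their sum are too low.

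Library totals ran from 3115832 to 4466963 counts, and 17262 to 19274 genes were detected per library. Pparg fell in the KO libraries of both tissues. In skin, the WT libraries held 75.7 and 59.8 CPM (counts scaled by the TMM-adjusted library size) and the KO libraries 8.46 and 13.3. In spleen, they held 22.5 and 12.3 against 2.16 and 1.66. The fall was a log2 fold change of -2.59 ± 0.326 in skin (SE, edgeR quasi-likelihood test, adjusted p = 0.000609) and -2.89 ± 0.394 in spleen (edgeR adjusted p = 0.00418). The spleen call was lost without KO_spleen replicate 2 (edgeR adjusted p = 0.0602) and with limma-voom (adjusted p = 0.0716). All 10 Treg defining genes, Foxp3 and Cd4 among them, were above 0 in every library.

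Skin and spleen Tregs differed in which guardian transcripts were abundant, in both genotypes. In skin, Bcl2 was lower than in spleen while Bcl2l1, Bcl2a1b and Bcl2a1d were higher. Among the BH3-only genes, Pmaip1 was higher in skin and Bcl2l11 was lower. Bax, Bak1 and Bbc3 did not pass the test. In WT, 6 of the 10 genes passed the threshold (edgeR adjusted p under 0.05), 4 higher and 2 lower in skin, against 31.8% of all genes tested, of which 16.6% were higher and 15.2% lower. In KO, 7 passed, 4 higher and 3 lower, against 29% of all genes tested (16.3% higher and 12.7% lower). The libraries of the tissues did not overlap for 7 of the 10 genes in WT (66.6% of all genes) and for all 10 in KO (65.2% of all genes).

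**Figure D1:**
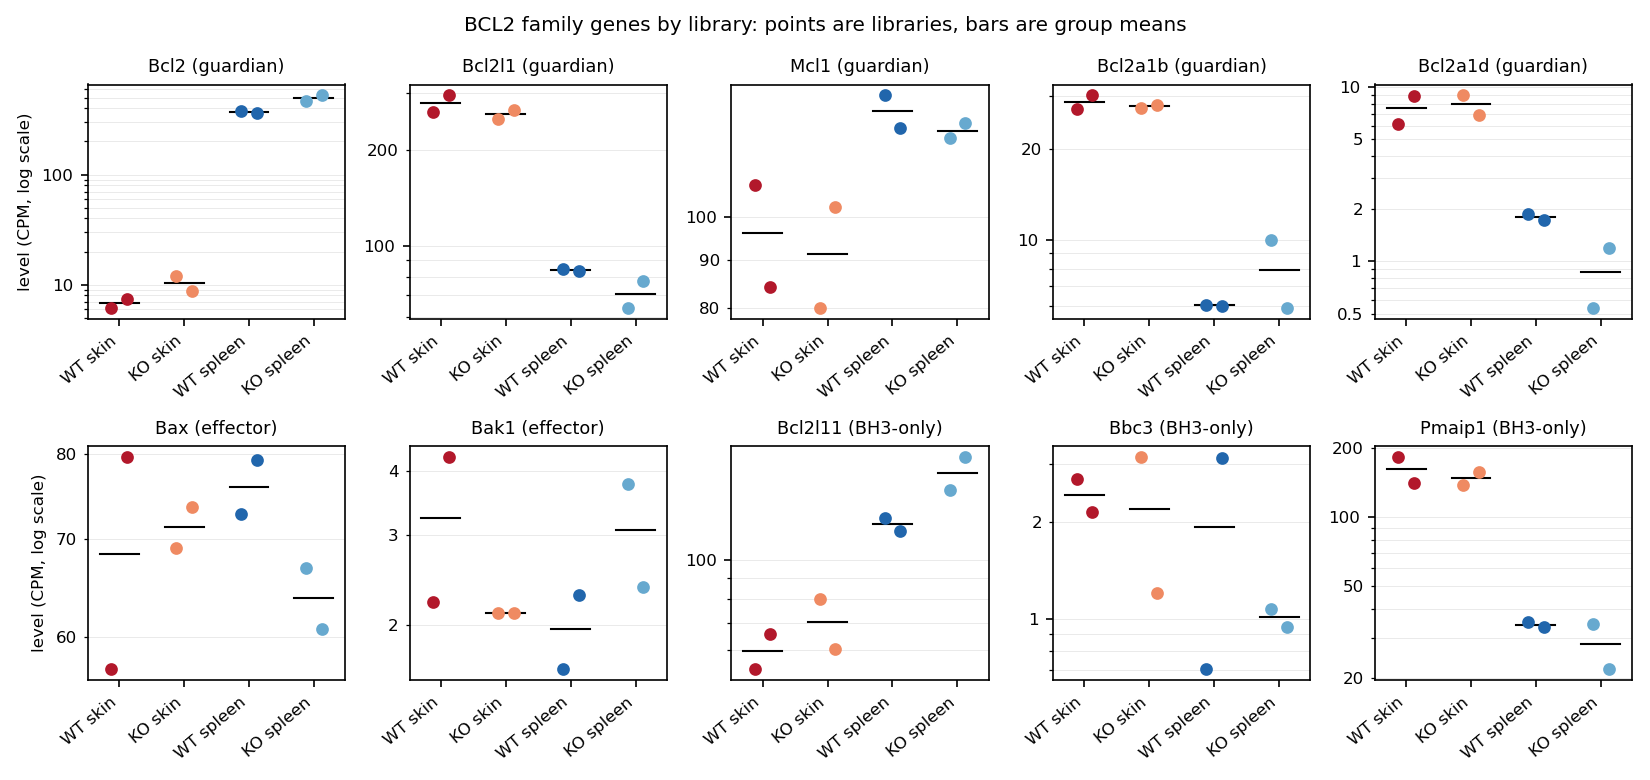
Level of each of the 10 BCL2 family genes in CPM (log scale, 1 panel a gene with its own axis), with 1 point a library and a bar at the mean of each group of 2 libraries. Bcl2 lies between 6.17 and 11.9 CPM in the skin libraries and between 363 and 526 in the spleen libraries, while Bcl2l1, Bcl2a1b, Bcl2a1d and Pmaip1 lie higher in every skin library than in any spleen library.

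Bcl2 (ENSMUSG00000057329.7, chr1:106538178-106714274, minus strand, mm10) showed the largest difference of the 10. Its level was 6.17 and 7.47 CPM for WT and 11.9 and 8.75 for KO in skin, and 375 and 363 for WT and 469 and 526 for KO in spleen. These levels rest on 21 to 45 counts in a skin library and 1268 to 2217 in a spleen library. No skin library came near a spleen library. The log2 fold change of skin against spleen was -5.67 ± 0.177 in WT, a 50.8-fold difference (edgeR adjusted p = 2.11e-13, 95% interval -6.04 to -5.30), and -5.51 ± 0.168 in KO, a 45.6-fold difference (edgeR adjusted p = 1.89e-13). By p, Bcl2 ranked 4 among the 12414 genes in WT and 3 in KO. In bulk libraries, fewer cells that carry a transcript and less transcript per cell cannot be told apart. An antisense gene, D630008O14Rik, overlaps 558 exonic bases of Bcl2 and had 0 to 37 counts per library. The strand setting of the counting is not given, so reads of that stretch cannot be assigned to either gene with certainty.

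Bcl2l1 (ENSMUSG00000007659.18, chr2:152780668-152831728, minus strand), the gene of BCL-XL, moved the other way. It stood at 263 and 296 CPM for WT and 250 and 265 for KO in skin, and 84.5 and 83.3 for WT and 63.9 and 77.3 for KO in spleen. Each skin library was above each spleen library. The rise in skin was 3.32-fold in WT (log2 1.73 ± 0.136, edgeR adjusted p = 2.61e-08) and 3.63-fold in KO (log2 1.86 ± 0.137, edgeR adjusted p = 1.2e-08).

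The A1 genes also rose in skin. Bcl2a1b (ENSMUSG00000089929.1, chr9:89199209-89207827, plus strand) had 27.1 and 30.2 CPM for WT and 27.5 and 28.1 for KO in skin, and 6.08 and 6.01 for WT and 9.98 and 5.93 for KO in spleen. Its log2 fold change was 2.15 ± 0.335 in WT (edgeR adjusted p = 8.71e-05) and 1.74 ± 0.326 in KO (edgeR adjusted p = 0.000545). Bcl2a1d (ENSMUSG00000099974.1, chr9:88723285-88731914, minus strand) had 6.17 and 8.90 CPM for WT and 8.98 and 6.94 for KO in skin, and 1.87 and 1.72 for WT and 0.540 and 1.19 for KO in spleen. The spleen values of Bcl2a1d rest on 2 to 8 counts. Its log2 fold change was 1.78 ± 0.561 in WT (edgeR adjusted p = 0.022) and 2.59 ± 0.577 in KO (edgeR adjusted p = 0.00245). The WT call was lost without WT_skin replicate 2, WT_spleen replicate 1 or WT_spleen replicate 2 (edgeR adjusted p = 0.102, 0.0906 and 0.0924). The counts of all 4 A1 symbols were also added, which does not depend on the split between copies. This sum does not restore reads that the counting may have left out. Its log2 fold change was 2.12 ± 0.298 in WT (edgeR adjusted p = 2.8e-05) and 1.98 ± 0.294 in KO (edgeR adjusted p = 5.38e-05).

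Mcl1 (ENSMUSG00000038612.16, chr3:95658788-95663176, plus strand) differed least between tissues among the guardians. It had 108 and 84.3 CPM for WT and 80.1 and 103 for KO in skin, and 135 and 124 for WT and 121 and 126 for KO in spleen. The skin libraries lay below the spleen libraries, by log2 -0.42 ± 0.160 in WT (edgeR adjusted p = 0.0528, not past the threshold) and -0.44 ± 0.161 in KO (edgeR adjusted p = 0.0493). The WT difference passed the threshold with upper-quartile scaling (edgeR adjusted p = 0.0304) and without WT_skin replicate 1 (edgeR adjusted p = 0.0273). The KO call lies at the threshold and was lost in 10 of 17 alternatives, in which the adjusted p reached 0.377. Among them were the fits without KO_skin replicate 1, either KO_spleen replicate or either WT_spleen replicate.

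Of the BH3-only genes, Pmaip1 (ENSMUSG00000024521.8, chr18:66458533-66465565, plus strand), the gene of NOXA, rose in skin. It had 183 and 141 CPM for WT and 137 and 157 for KO in skin, and 35.1 and 33.2 for WT and 34.5 and 21.8 for KO in spleen. The log2 fold change was 2.23 ± 0.202 in WT (edgeR adjusted p = 1.74e-07) and 2.37 ± 0.206 in KO (edgeR adjusted p = 1.08e-07). Bcl2l11 (ENSMUSG00000027381.16, chr2:128126038-128162547, plus strand), the gene of BIM, fell in skin. It had 53.8 and 65.8 CPM for WT and 80.1 and 60.3 for KO in skin, and 127 and 117 for WT and 148 and 179 for KO in spleen. The log2 fold change was -1.03 ± 0.173 in WT (edgeR adjusted p = 0.000184) and -1.21 ± 0.170 in KO (edgeR adjusted p = 3e-05). Each skin library was thus above each spleen library for Pmaip1 and below each for Bcl2l11. Bbc3 (ENSMUSG00000002083.13, chr7:16308393-16318205, plus strand), the gene of PUMA, was near the limit of detection with 3 to 12 counts per library. Its log2 difference was 0.30 ± 0.746 in WT (edgeR adjusted p = 0.798) and 0.83 ± 0.748 in KO (0.447), and its 95% interval in WT, -1.27 to 1.87, leaves differences of several fold in either direction undetectable at this depth.

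The effectors did not pass the test between tissues. Bax (ENSMUSG00000003873.11, chr7:45461697-45466898, minus strand) had 57.0 and 79.7 CPM for WT and 69.0 and 73.6 for KO in skin, and 72.8 and 79.3 for WT and 66.9 and 60.7 for KO in spleen. Its log2 difference was -0.16 in WT (95% interval -0.55 to 0.24, edgeR adjusted p = 0.561) and 0.16 in KO (95% interval -0.24 to 0.55, edgeR adjusted p = 0.571). Bak1 (ENSMUSG00000057789.14, chr17:27019810-27029009, minus strand) had only 7 to 14 counts per library, with 2.22 and 4.27 CPM for WT and 2.11 in both KO libraries of skin, and 1.64 and 2.29 for WT and 3.78 and 2.37 for KO in spleen. Its log2 difference was 0.58 ± 0.657 in WT (edgeR adjusted p = 0.543) and -0.44 ± 0.650 in KO (0.659). Ggnbp1, an antisense gene with 0 to 9 counts per library, overlaps 614 exonic bases of Bak1, and the same limit on strand applies. On the same strand, Gm29094 (0 to 3 counts per library) shares 401 of the 817 exonic bases of Bcl2a1b, and Gm45808 (0 counts) shares 192 of Bax. How reads in shared stretches were assigned is not known, which also touches the per-length levels given for Bcl2a1b and Bax.

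**Figure D2:**
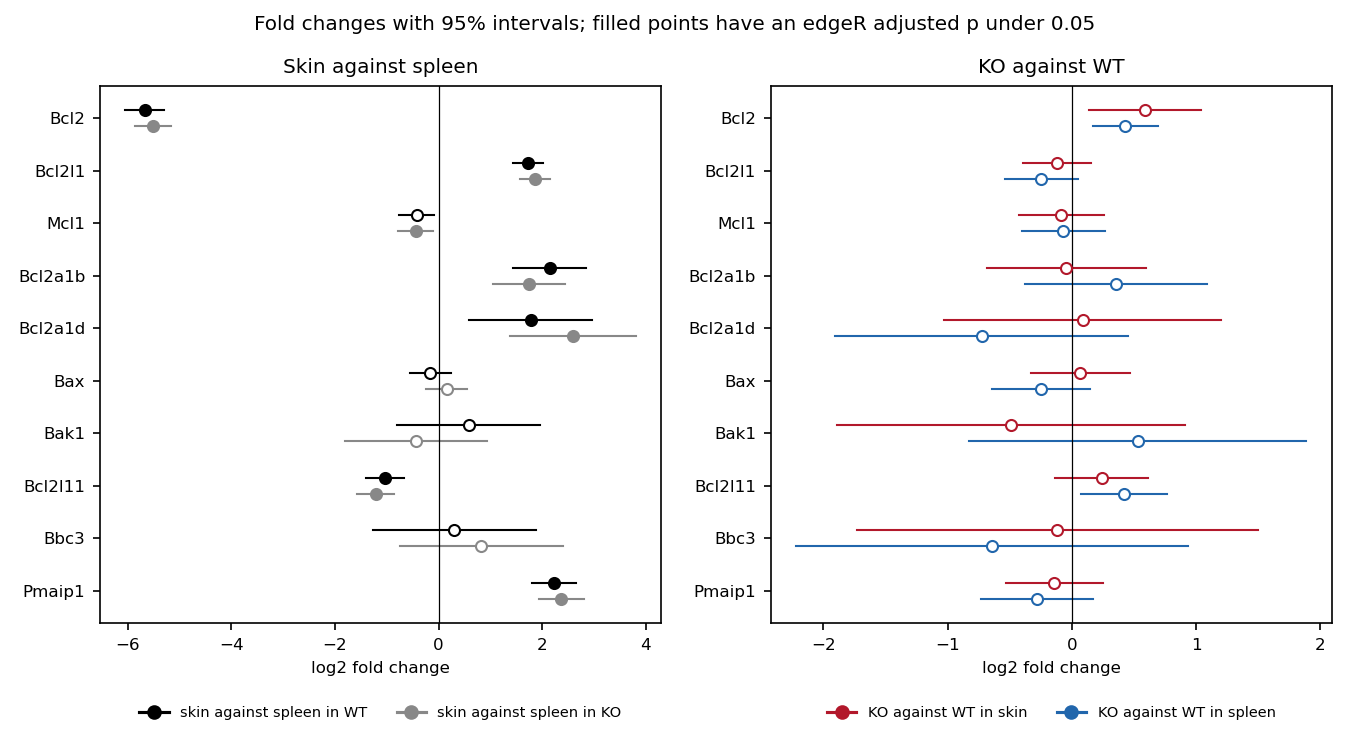
Log2 fold change of each BCL2 family gene (points) with its 95% interval (lines), skin against spleen on the left in each genotype and KO against WT on the right in each tissue, with filled points where the edgeR adjusted p is under 0.05. On the left the Bcl2 points lie at -5.67 and -5.51 and those of Bcl2l1, Bcl2a1b, Bcl2a1d and Pmaip1 lie to the right of 0, and on the right no point is filled.

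To set the genes beside each other, the CPM of each was divided by the summed length of all its annotated exons. The transcripts present may be shorter, so the order of genes at close levels depends on this length. The places of Bcl2a1b and Bcl2a1d in the orders below are uncertain, since their levels may be too low if multiply matching reads were left out. On this scale of CPM per kb, the order in WT skin was led by Bcl2l1 at 61.0 ± 5.13 (SD, n = 2) and Pmaip1 at 59.3 ± 11.1, whose ranges overlapped. Bax (43.4 ± 10.2) and Bcl2a1b (35.1 ± 2.697) came next and overlapped too, followed by Mcl1 (28.2 ± 4.95), Bcl2a1d (8.73 ± 2.24) and Bcl2l11 (7.45 ± 1.06), of which the last pair overlapped. Bak1, Bbc3 and Bcl2 were lowest, with 1.35, 1.14 and 0.745. In KO skin the first 7 genes stood in the same order, from Bcl2l1 at 56.2 ± 2.35 to Bcl2l11 at 8.74 ± 1.74, and Bcl2 (1.13), Bbc3 (1.03) and Bak1 (0.878) closed it.

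In WT spleen the order on the same scale was Bax (48.2 ± 2.92), Bcl2 (40.3 ± 0.963), Mcl1 (37.96 ± 2.18), Bcl2l1 (18.3 ± 0.185), Bcl2l11 (15.2 ± 0.816), Pmaip1 (12.5 ± 0.493), Bcl2a1b (7.40 ± 0.0643) and Bcl2a1d (2.08 ± 0.127), with no overlap between neighbours. Bbc3 (0.906) and Bak1 (0.816) closed it and overlapped. In KO spleen Bcl2 came first at 54.4 ± 4.37, ahead of Bax (40.5 ± 2.77), Mcl1 (36.2 ± 0.947), Bcl2l11 (20.3 ± 2.73) and Bcl2l1 (15.4 ± 2.07). Bcl2 was thus among the lowest 3 of the 10 genes in skin and among the highest 2 in spleen.

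The summed level of the 5 guardians differed less than its make-up. The sum was 130 and 137 CPM per kb for WT and 123 and 131 for KO in skin, and 109 and 104 for WT and 114 and 120 for KO in spleen. Bcl2 made up 0.518% and 0.594% of that sum for WT and 1.05% and 0.728% for KO in skin, and 37.8% and 38.3% for WT and 45.1% and 47.9% for KO in spleen. The share of Bcl2l1 was 44.1% to 47.0% over the skin libraries and 12.3% to 17.5% over the spleen libraries. Bcl2a1b held 25.5% to 27.3% in skin and 6.06% to 10.8% in spleen, and Mcl1 held 17.95% to 24.4% in skin and 30.8% to 36.4% in spleen. These shares are descriptions of transcript levels, with no test over the members. The sum and the shares carry the same limits on the A1 levels and on the exon length.

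**Figure D3:**
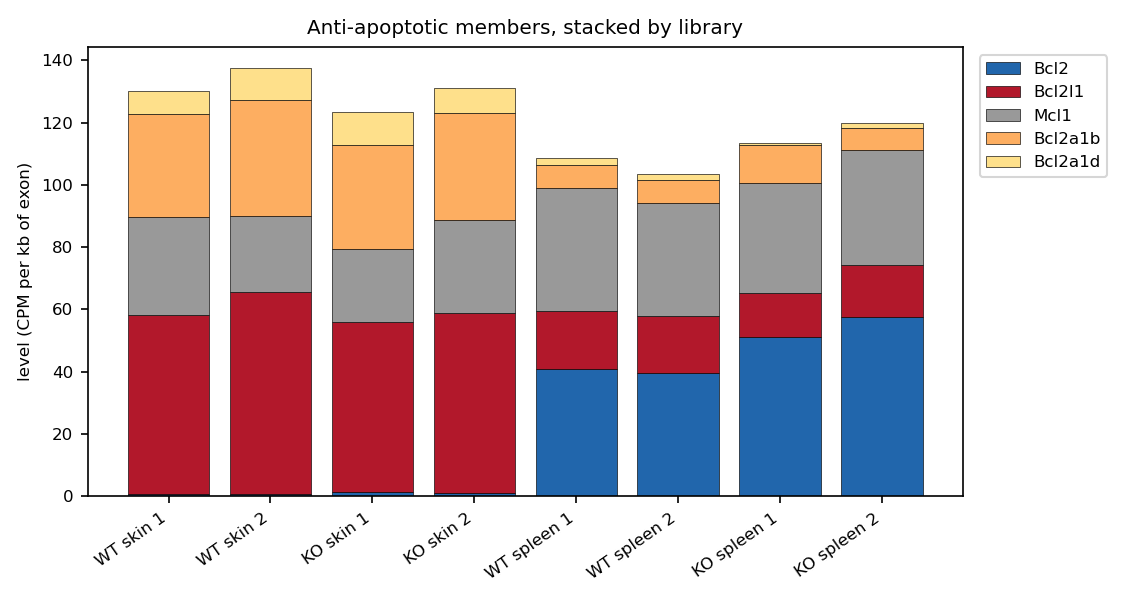
Level of the 5 guardian genes in CPM per kb of exon, stacked for each of the 8 libraries. The stacks are 104 to 137 high, and the Bcl2 segment fills 37.8% to 47.9% of the spleen stacks and 0.518% to 1.05% of the skin stacks, where Bcl2l1 and Bcl2a1b are the wide segments.

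The BH3-only genes changed in make-up too. The ratio of Pmaip1 to Bcl2l11 per kb was 10.02 and 6.27 for WT and 5.04 and 7.66 for KO in skin, and 0.815 and 0.831 for WT and 0.686 and 0.359 for KO in spleen. On this scale, with its limit on exon length, Pmaip1 was therefore the more abundant of the pair in every skin library and Bcl2l11 in every spleen library. The summed BH3-only level was 60.7 to 75.1 CPM per kb in skin and 28.2 to 31.6 in spleen. The summed level of the effectors Bax and Bak1 overlapped between the tissues, at 37.1 to 52.4 and 39.5 to 51.3.

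The question of the study, what PPARγ does to the Treg transcriptome, is the genotype comparison. None of the 10 BCL2 family genes passed the threshold in skin (0.894% of all genes tested did), in spleen (0.282%), averaged over the tissues (0.789%) or in the difference of the genotype effect between the tissues (0.0967%). At an unadjusted edgeR p under 0.05 the counts were 1, 2, 2 and 0 of the 10 members, against 1342, 972, 1172 and 1178 of the 12414 genes. DESeq2 and limma-voom called none of the members to which they gave an adjusted p in these comparisons. To some low-count members DESeq2 gave none, such as Bak1 in the difference between the tissues. The libraries of the genotypes did not overlap for 2 of the 10 genes in skin (39.9% of all genes) and for 6 in spleen (38.6% of all genes). The median size of the log2 difference was 0.116 over the members against 0.234 over all genes in skin, and 0.389 against 0.203 in spleen. The largest in spleen were those of Bcl2a1d (-0.73), Bbc3 (-0.64) and Bak1 (0.53), which had 2 to 14 counts per spleen library. Bcl2a1d and Bak1 were also among the 6 without overlap. In spleen, 4 of the 10 differences were above 0 and 6 below.

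Bcl2 had the smallest genotype p of the 10. The values given above put both KO libraries above both WT libraries in each tissue. The log2 difference of KO against WT was 0.59 ± 0.215 in skin (95% interval 0.14 to 1.04, edgeR adjusted p = 0.312), 0.43 ± 0.126 in spleen (0.17 to 0.70, edgeR adjusted p = 0.248) and 0.51 ± 0.125 averaged over the tissues (0.24 to 0.77, edgeR adjusted p = 0.0752). The averaged difference passed the threshold in 1 alternative, the fit without a low-count filter (edgeR adjusted p = 0.0126), and over the alternatives its adjusted p ran from 0.0126 to 0.476. The genotype differences in skin and spleen differed by 0.16 ± 0.211 (edgeR adjusted p = 0.895).

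Bcl2l11 came next. Its log2 difference was 0.24 ± 0.176 in skin (edgeR adjusted p = 0.683), 0.42 ± 0.165 in spleen (95% interval 0.07 to 0.77, edgeR adjusted p = 0.495) and 0.33 ± 0.121 averaged (edgeR adjusted p = 0.329). Both KO spleen libraries lay above both WT spleen libraries, and the skin libraries overlapped. Bcl2l1 had a log2 difference of -0.12 in skin (95% interval -0.39 to 0.16) and -0.24 in spleen (-0.54 to 0.05), with edgeR adjusted p = 0.822 and 0.741.

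For Mcl1, Bax and Pmaip1 the intervals were narrow enough to bound the genotype difference. Mcl1 had 95% intervals of -0.43 to 0.26 in skin and -0.40 to 0.26 in spleen on the log2 scale. The intervals of Bax were -0.33 to 0.47 and -0.64 to 0.14, and those of Pmaip1 were -0.53 to 0.25 and -0.73 to 0.17. The low-count genes were bounded poorly, with intervals in skin of -0.69 to 0.60 for Bcl2a1b, -1.03 to 1.20 for Bcl2a1d, -1.89 to 0.91 for Bak1 and -1.73 to 1.496 for Bbc3. In spleen they were -0.37 to 1.09, -1.91 to 0.46, -0.83 to 1.89 and -2.22 to 0.94. Bak1 was below both WT libraries in KO skin and above both in KO spleen, on counts of 7 to 14, and neither difference passed the test (log2 -0.49 and 0.53, edgeR adjusted p = 0.863 and 0.955).

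Averaged over the tissues, the log2 differences of the other 8 genes were -0.18 for Bcl2l1, -0.077 for Mcl1, 0.16 for Bcl2a1b, -0.32 for Bcl2a1d, -0.091 for Bax, 0.021 for Bak1, -0.38 for Bbc3 and -0.21 for Pmaip1. Their edgeR adjusted p ran from 0.597 for Bcl2l1 to 0.997 for Bak1. The genotype effect in skin minus that in spleen ran from -1.02 for Bak1 to 0.81 for Bcl2a1d over the 10 genes, with edgeR adjusted p of 0.794 or more.

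The genes most like Bcl2 in their pattern were sought over the 8 libraries among 7024 genes of moderate or high level. Eno3, a muscle-type enolase of glycolysis, had a Pearson correlation of log2 CPM of 0.9997 with Bcl2, Elk4, a transcription factor of the ETS family, 0.999, and Utrn, the gene of utrophin, 0.998. Eno3 had 3.68 ± 0.326 CPM (SD, n = 2) for WT and 4.90 ± 0.537 for KO in skin, and 61.5 ± 4.39 for WT and 72.8 ± 1.07 for KO in spleen. The 8 points fall into a skin and a spleen cluster and share their libraries and depth, and the correlations describe the gap between the tissues.

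Around the family, lists of related genes were read in the same fits, by counts and medians. The counts of tissue calls below stand beside 31.8% of all genes tested in WT (16.6% higher and 15.2% lower in skin). In KO the share was 29% (16.3% higher and 12.7% lower). Of 16 other BCL2 family genes, 10 were tested. In WT, Bnip3 (log2 3.99 ± 0.253), a mitochondrial protein of mitophagy, and Bid (0.59 ± 0.179), the link from death receptors to mitochondria, rose in skin and Bcl2l14 (-1.90 ± 0.629) fell. In KO, Bnip3 (3.87 ± 0.242) and Bid (0.76 ± 0.179) rose and none fell. The Bid and Bcl2l14 calls were lost when certain libraries were left out, Bid in WT without WT_skin replicate 1 or either WT_spleen replicate, Bid in KO without KO_skin replicate 2 or KO_spleen replicate 1, and Bcl2l14 without WT_skin replicate 2 or WT_spleen replicate 2. The list median was log2 0.31 in WT against -0.04 over all genes, and 0.22 in KO against -0.03.

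Of 18 tested genes of the apoptosome, caspases and inhibitors of apoptosis (IAPs), 6 rose and 1 fell in WT skin against spleen, and 7 rose and 1 fell in KO. Birc5, the gene of survivin, which also acts in cell division, rose by log2 1.44 ± 0.173 in WT and 1.07 ± 0.170 in KO. Birc3, the gene of cIAP2, rose by 0.80 ± 0.144 in WT and 0.48 ± 0.143 in KO. The list medians were 0.13 in WT and below 0 in KO (-0.00498). In the death receptor branch, 2 of 12 genes rose and 1 fell in WT, and 3 rose and 2 fell in KO. Tnfrsf10b, the mouse TRAIL receptor, rose by 3.50 ± 0.346 in WT and 2.66 ± 0.337 in KO, and Fas fell by 0.60 and 0.87 on the log2 scale. The list medians were -0.07 in WT and 0.06 in KO. The Fas call in WT was lost without WT_skin replicate 2 or WT_spleen replicate 2.

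Upstream of the family, 6 of 13 genes of the IL-2, IL-7 and STAT5 list rose and 3 fell in WT skin, and 6 rose and 1 fell in KO. The STAT5 targets Cish (log2 1.43 ± 0.118 in WT and 1.10 ± 0.118 in KO) and Socs2 (1.64 ± 0.194 and 1.46 ± 0.197) rose with the kinase gene Jak3 (1.04 ± 0.106 and 0.86 ± 0.106). Stat5b itself fell, by log2 -1.18 ± 0.146 in WT and -0.53 ± 0.143 in KO. The list medians were 0.53 and 0.42. Of 13 p53 genes, 4 rose and 2 fell in WT, and 3 rose and 2 fell in KO. Cdkn1a, the cell cycle inhibitor p21, rose by log2 6.72 ± 0.228 in WT and 5.98 ± 0.219 in KO, whereas Sesn1, a stress-induced regulator of growth, fell by -1.24 ± 0.125 and -2.26 ± 0.130. The list medians were 0.04 and 0.16.

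Among 10 FOXO and stress regulators of Bcl2l11 and Bbc3, 3 rose and 2 fell in WT skin, and 2 rose and 1 fell in KO. Foxo1, a transcription factor that activates Bcl2l11, fell by log2 -0.86 ± 0.154 in WT and -1.03 ± 0.154 in KO, and Atf4, a factor of the integrated stress response, rose by 1.67 ± 0.128 and 1.54 ± 0.128. Foxo3 fell in WT (log2 -1.13, edgeR adjusted p = 0.00246) and was not called in KO. It had 27.1 and 23.5 CPM for WT and 26.7 and 41.0 for KO in skin. In spleen, Foxo3 had 51.7 and 61.2 CPM for WT and 28.9 and 21.4 for KO, a genotype difference that did not pass the test. The list medians were 0.23 and 0.10. Of 9 genes of MCL1 turnover, 2 rose and none fell in WT, and 2 rose and 1 fell in KO. Trib1 rose by 1.00 ± 0.223 and 1.27 ± 0.225, and Cdc20, an activator of the anaphase-promoting complex, by 1.35 ± 0.213 and 0.87 ± 0.211. The third KO call, Gsk3b, was lost in 11 of 17 alternatives, and Cdc20 in KO was lost without KO_spleen replicate 2. The medians of this list were 0.00317 and 0.00622.

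Between genotypes, 2 genes of these 7 lists passed the threshold in skin and none in spleen or averaged over the tissues. Of all genes tested, 0.894%, 0.282% and 0.789% passed in these comparisons. The list medians in skin lay between -0.0758 and -0.00381, against 0.00704 over all genes. In spleen they lay between -0.232 (death receptor branch) and 0.0846 (other BCL2 family genes), against -0.00203 over all genes. Averaged over the tissues they lay between -0.194 (FOXO and stress regulators) and 0.015 (other BCL2 family genes), against -0.00181. Sesn1 had 235 and 200 CPM for WT and 111 and 140 for KO in skin, and 491 and 537 for WT and 609 and 598 for KO in spleen. It fell in KO skin by log2 -0.79 ± 0.128 (edgeR adjusted p = 0.00453), a call lost without KO_skin replicate 1 or WT_skin replicate 1. Jun, a component of AP-1, fell in KO skin by -1.06 ± 0.243 (edgeR adjusted p = 0.0474) and lost its call in 9 of 17 alternatives, in which the adjusted p reached 0.602.

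**Figure D4:**
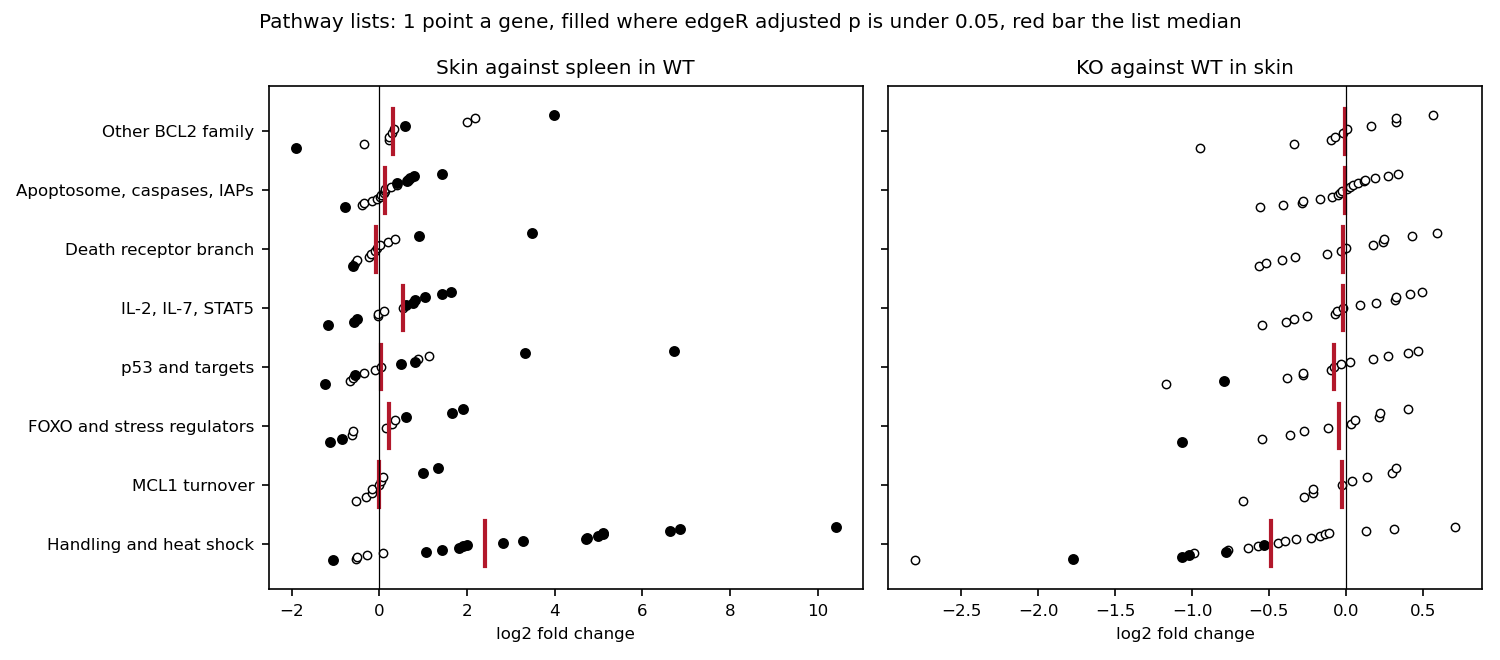
Log2 fold change of each tested gene of the 7 pathway lists and of the handling and heat shock list, skin against spleen in WT on the left and KO against WT in skin on the right, with 1 point a gene, filled points where the edgeR adjusted p is under 0.05, and a red bar at the list median. On the left the handling and heat shock genes stand to the right with a median of 2.41, and on the right the filled points are Sesn1 in the p53 list, Jun, and the other handling genes that fell.

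Genes of cell handling and heat shock moved with the tissue and are given beside the tissue results. Of 20 tested, 15 rose and 1 fell in WT skin (median log2 2.41), and 16 rose and 2 fell in KO skin (median 1.90). Their summed level, in CPM of the total count, was 18464 to 22060 for WT and 16126 to 16812 for KO in skin, and 2728 to 2777 for WT and 2550 to 2754 for KO in spleen. In KO skin against WT skin, 5 of the 20 fell, Jun among them, against 0.894% of all genes tested called in either direction. Their part in the differences of the BCL2 family genes was not tested.

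Markers of other cells were read in the same way, as summed CPM of the total count. The 8 B cell markers were at 17.7 to 29.9 in skin and 28.2 to 49.2 in spleen. Cd79b held most of each sum, with 50 to 130 counts in the skin libraries and 84 to 186 in the spleen libraries. Cd79a was called lower in skin in WT, with 2 and 1 counts in WT skin and 6 and 19 in WT spleen. Ms4a1, the gene of CD20, had 0 to 5 counts. The 13 myeloid and mast cell markers were low, with a sum of 17.5 to 25.3 in skin against 6.05 to 17.3 in spleen. Of the 2 that were tested, Kit was called higher in skin in both genotypes. Csf1r went the other way and was called lower in skin in WT, with 1 count in each WT skin library and 2 and 33 counts in WT spleen. In every library 3 of the markers were at 0 counts (S100a8, Mcpt4 and Ms4a2). The 9 keratinocyte and fibroblast markers stood at 8.74 to 17.7 in skin and 3.82 to 8.499 in spleen, with Col1a1 called higher in skin in both genotypes and Pdgfra at 0. The 9 Langerhans and dendritic cell markers moved with the tissue, at 207 to 288 in skin and 40.3 to 68.9 in spleen. Epcam held the largest part in every library, with 102 to 160 TMM-scaled CPM in skin and 18.9 to 44.4 in spleen. In WT skin, Xcr1 added 90.8 and 87.2. Itgax had 0 to 14 counts per library and Flt3 0 to 7. Of this list, Xcr1 fell in KO skin by log2 -2.96 (edgeR adjusted p = 0.00395) and averaged over the tissues by -2.40 (edgeR adjusted p = 0.00724). Cd74 (1.02) and H2-Ab1 (2.59) were higher in both KO skin libraries without passing the test. The H2-Ab1 value rests mainly on KO_skin replicate 1, with 180 counts against 22 in replicate 2 and 17 and 11 in WT skin. H2-Eb1 had 67 and 6 counts in KO skin and 14 and 12 in WT skin, and did not pass the test either. Cd207, which defines Langerhans cells, had at most 1 count in any library. KO_skin replicate 1 stood apart with 157 counts of H2-Aa, a gene of antigen-presenting cells that had 0 to 8 counts in the other libraries, and with 29 counts of Cd8a. The 8 CD8 T and NK cell markers moved with tissue and genotype, at 279 to 308 for WT and 159 to 175 for KO in skin, and 111 to 144 for WT and 46.1 to 54.1 for KO in spleen, mostly through Nkg7, which T cells also express. The part of these markers in the family's differences was not tested.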

How the data were processed

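RNA was sequenced from 8 libraries of sorted mouse Tregs, 2 in each of 4 groups given by the labels. The deposited values are raw counts per gene symbol that the authors made with STAR 2.7.3a and featureCounts on genome build mm10, per the submitters' processing notes. No source used here gives the annotation, the strand setting or the rule for multiply matching reads. All lines of the table named genes, and every column of values belonged to a listed sample.

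Genes were filtered with filterByExpr (minimum count of 10), leaving 12414, and libraries were scaled by TMM. The test was edgeR 4.0.16's robust quasi-likelihood test (R 4.3.3) on all 8 libraries, with 1 coefficient per group, a prior count of 2, which shrinks the folds of low counts, p-values adjusted by Benjamini-Hochberg over all 12414 genes (threshold 0.05). The SE is the fold change divided by the square root of F, and intervals are 95%. The amplified reads carry no molecular identifiers. The fits were tested on simulated counts. CPM per kb uses the summed exon length in GENCODE M21. Promoters come from RefSeq.

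All 10 members were eligible in each comparison, and of each list up to 4 genes of smallest p, those past the threshold first. Some genes that met this rule are left out of the text. The members and lists were chosen with earlier results of these data known. Alternatives were RLE and upper-quartile scaling, DESeq2 1.42.0, limma-voom (limma 3.58.1), no robust estimation, a CPM filter, no filter, a replicate block, compared groups only, summed A1 copies and leaving out each library.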

Additional observations from a re-analysis of the deposited data

Results flagged for a closer look

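Sesn1, a p53 target on the list read beside the BCL2 family, differed between the tissues in its genotype effect. The KO effect in skin minus that in spleen was -1.03 ± 0.176 on the log2 scale (edgeR adjusted p for the difference = 0.0257). KO was lower than WT in both skin libraries and higher in both spleen libraries. The call was lost in 5 of 16 alternatives (without KO_skin replicate 1, WT_skin replicate 1, WT_spleen replicate 1 or WT_spleen replicate 2, and without robust estimation), in which the adjusted p reached 0.14. None of the 10 BCL2 family genes had a genotype effect that passed the test of the difference between tissues.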

How the results depend on the processing

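The 13 tissue calls among the BCL2 family genes kept their direction in all 225 refits and their side of the threshold in 212. The 13 lost calls were Mcl1 in KO and Bcl2a1d in WT, named above. Members called numbered 5 to 7 in WT and 6 to 7 in KO. Of the 40 genotype results of the members, none was called, and 1 of 654 refits passed the threshold. This was Bcl2 averaged over tissues with no filter, which gave 1 member called.

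Over all genes, the 111 genotype calls in skin became 344 with no filter and ranged from 29 to 209 without each library in turn. The 35 in spleen became 84 with DESeq2 and 154 with no filter, and ranged from 7 to 119. The 98 averaged over tissues became 288 with no filter and ranged from 49 to 142. The 12 for the difference between tissues became 96 with DESeq2, 59 with limma-voom and 233 with no filter, and ranged from 1 to 146. The cause was not tested. Tissue calls ranged from 2633 to 3927 in WT and 2476 to 3759 in KO without each library.

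With the A1 copies summed, Bcl2a1d changed sign in the genotype comparisons: -0.014 in skin, 0.13 in spleen, 0.057 averaged and -0.14 for the difference between tissues. Without each library in turn, uncalled log2 differences crossed 0 for the following. In skin the ranges were -0.16 to 0.32 for Bax, -0.77 to 0.32 for Bbc3, -0.12 to 0.0305 for Bcl2a1b, -0.15 to 0.34 for Bcl2a1d, -0.27 to 0.11 for Mcl1 and -0.32 to 0.065 for Pmaip1. In spleen they were -1.24 to 0.33 for Bbc3, -0.013 to 0.68 for Bcl2a1b and -0.62 to 0.017 for Pmaip1. Averaged over tissues they were -0.16 to 0.24 for Bak1, -0.21 to 0.032 for Bax, -0.71 to 0.10 for Bbc3, -0.031 to 0.31 for Bcl2a1b and -0.17 to 0.020 for Mcl1. For the difference between tissues they were -0.45 to 1.12 for Bbc3, -0.076 to 0.35 for Bcl2, -0.019 to 0.26 for Bcl2l1, -0.40 to 0.0059 for Bcl2l11, -0.20 to 0.18 for Mcl1 and -0.16 to 0.48 for Pmaip1. Between tissues in WT they were -0.41 to 0.070 for Bax and -0.29 to 1.28 for Bbc3. Where a group is left with 1 library, that library is assumed to vary like the others.

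Same-numbered libraries deviated together only weakly (r of 0.0283 to 0.112 over pairs of groups, and -0.0342 to 0.0492 without sex-linked genes), so the replicate numbers were not taken as pairs. With the replicate block, 6 members were called between tissues in KO in place of 7, since Mcl1 stood at -0.44 with an edgeR adjusted p of 0.0605. Bak1 and Bbc3, and Bcl2a1d in spleen, are limited by counts of at most 14 per library.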
